A study of Macaca mulatta with 20 samples.

Results

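The step from 1 to 3 days of chorionic gonadotropin was followed in the corpus luteum of rhesus macaques, as the difference between 2 groups of 4 arrays, 8 of the 20 arrays in the series. Members were taken by their labels alone. The hCG day 10 group held 4 corpora lutea collected on luteal day 10 after 1 day of human chorionic gonadotropin (hCG), and the hCG day 12 group held 4 collected on luteal day 12 after 3 days. All of these females had received hCG (Novarel, called recombinant in the labels) from luteal day 9, injected into muscle 2 times per day. The whole regimen, called simulated early pregnancy, climbed in 9 dose steps from 15 to 2880 IU. Which step each group had reached at collection is not stated in the labels used here. For reference, 4 untreated corpora lutea of luteal day 10 and 4 each of hCG day 15 and hCG day 18 (6 and 9 days of hCG) are given beside them. From day 10 to day 12 luteal age, hCG dose and length of treatment rose together, and their parts cannot be told apart. No untreated corpus luteum of luteal day 12 is among the groups used here. Ages are not in the labels used here, and nor is it said that each gland of a group is from a different female. The p values therefore cover only sample-to-sample spread, which may be technical.

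The corpus luteum is the progesterone-secreting gland that the follicle turns into after ovulation. Chorionic gonadotropin, the hormone of the implanting conceptus, binds the same receptor as luteinizing hormone on luteal cells, raises cyclic AMP, and extends the life of the gland beyond that of a nonfertile cycle. Genes switched on by a gonadotropin stimulus commonly include a rapid set whose messenger RNA is short-lived, while steroid synthesis has to be kept up for as long as pregnancy depends on the ovary.

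Each array gave 1 signal per probe set, a linear intensity without detection calls. Of 52865 probe sets, 158 array controls were left out and 52707 were tested, of which 24956 carry 1 gene symbol. The number of arrays limits the precision. Changes were computed on the log2 of the signal + 16. Array quality gave no difference between the groups past the threshold: the median signal averaged 39.4 on hCG day 10 and 38.5 on hCG day 12 (two-sided exact permutation test, p = 0.89), and the share of probe sets under a signal of 16 did not differ past it either (exact permutation p = 0.74). The 3' minus 5' contrast within the control probe sets did not pass for actin (exact permutation p = 0.29) or for GAPDH (exact permutation p = 0.34), where the smallest p that 4 against 4 arrays allow is 0.0286. Transcripts that define steroidogenic luteal tissue were abundant in both groups: STAR, which carries cholesterol into mitochondria, had a mean signal of 15474 ± 1246 (SD, n = 4) on hCG day 10 and 16201 ± 5070.0 on hCG day 12, and CYP19A1, the aromatase that makes estrogen, 9580.3 ± 1569 and 9430.1 ± 1969.7. Errors of signals are standard deviations over 4 arrays, and errors of log2 changes are standard errors of the fit (SE).

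Between the first and the third day of hCG, far more transcripts fell than rose. Of 52707 probe sets, 273 (0.518%) passed the test (limma, Benjamini-Hochberg adjusted p under 0.05): 219 (0.416%) were lower on hCG day 12 and 54 (0.102%) higher. They named 113 genes that fell and 25 that rose, and 93 of the probe sets carried no single symbol. The change was at least 2-fold for 131 of the lower and 26 of the higher probe sets, on the scale of the signal + 16, which understates the change of dim probe sets. The 4 and 4 arrays did not overlap for 213 of the 219 lower ones, where 2.68% of all probe sets tested were lower without overlap, and for 53 of the 54 higher ones, where 1.91% were higher without overlap (4.59% in either direction). These probe sets were called on the same arrays, so the lack of overlap adds no support to the calls. At an unadjusted p under 0.05 the counts were 2496 lower and 1866 higher. Counting 1 probe set for each of 14132 genes, with p adjusted over all probe sets as before, 102 (0.722%) passed, 85 (0.601%) lower and 17 (0.12%) higher.

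How many probe sets passed depended on the arrays in the fit. Fitted on the 8 arrays alone, where the spread was estimated from these groups only, 56 passed, 52 lower and 4 higher. The count was 170 without hCG day 10 replicate 1, 169 without replicate 3 and 168 without replicate 4, and 179 without hCG day 12 replicate 1, 174 without replicate 3 and 151 without replicate 4. All 273 kept their direction in each of these fits. For probe sets whose arrays did not overlap this was fixed in advance, so it is no measure of stability.

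**Figure D1:**
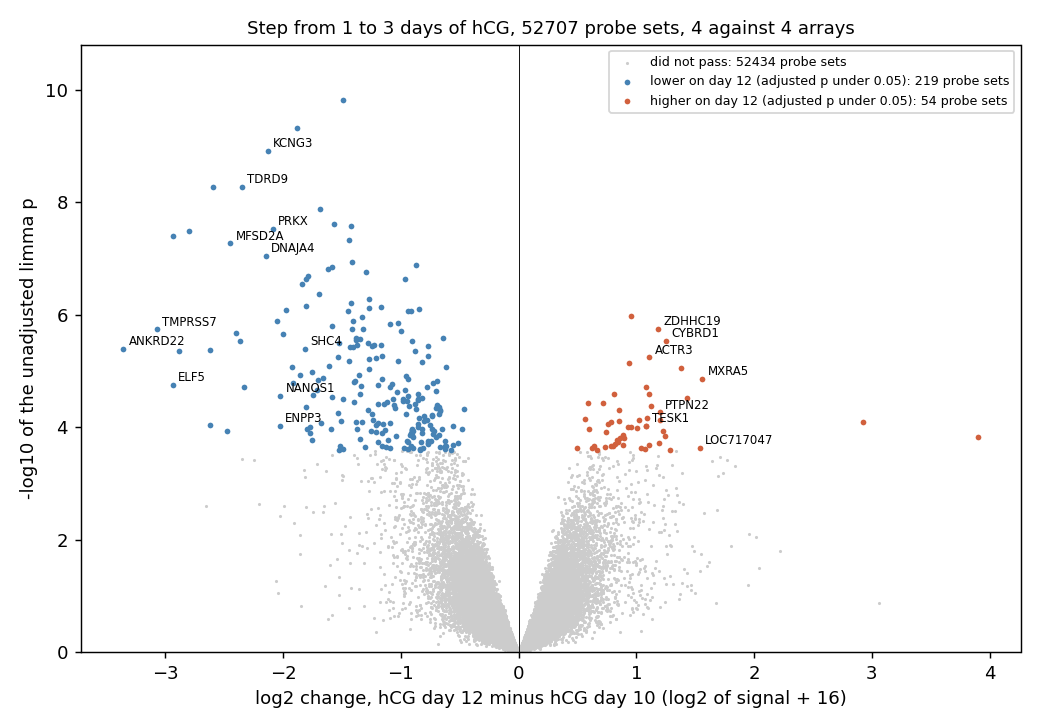
Each point is 1 of 52707 probe sets, with the log2 change from hCG day 10 to hCG day 12 on the horizontal axis and the negative log10 of the unadjusted limma p on the vertical axis; 219 blue points were lower and 54 orange points higher at an adjusted p under 0.05. The decreases reach -3.35 and crowd the upper left, and gene names are printed where they do not collide.

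As a group, the transcripts that fell had stood above the untreated level on hCG day 10. Over the 219 lower probe sets the median change of the step was -1.16, against -0.01 over all tested, and their median difference from untreated corpora lutea was 0.88 on hCG day 10 and -0.24 on hCG day 12. Over the 54 higher probe sets the median change was 0.95, and the median difference from untreated was -0.47 on hCG day 10 and 0.44 on hCG day 12. Since the choice of these probe sets used both hCG groups, these medians are descriptions only. The untreated, day 15 and day 18 arrays were not part of that contrast, although all 20 arrays shared 1 estimate of the spread.

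**Figure D2:**
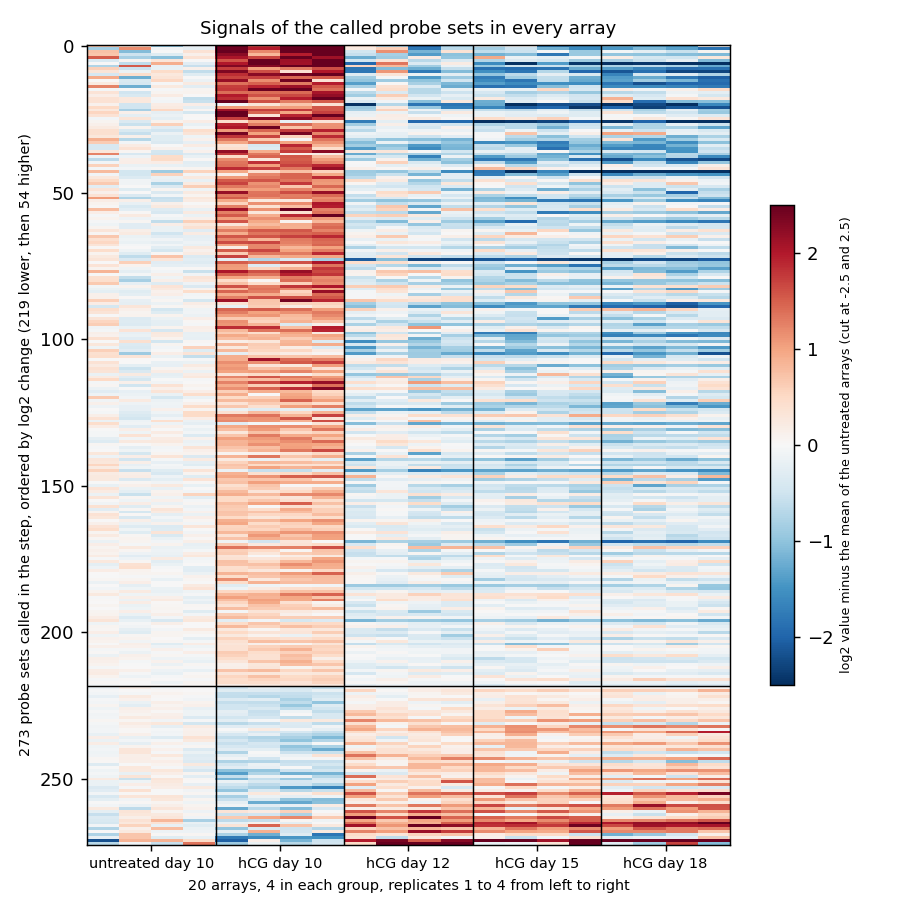
Rows are the 273 probe sets called in the step, the 219 lower ones above the line, and columns are the 20 arrays in their 5 groups; colour gives the log2 value minus the mean of the untreated arrays. The lower probe sets are red in the 4 hCG day 10 arrays and pale to blue in all later columns, with medians against untreated of 0.88 on hCG day 10 and -0.24 on hCG day 12.

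ANKRD22, an ankyrin repeat protein, fell most. Its signals were 403, 196, 365 and 673 in the 4 hCG day 10 arrays and 69.01, 23.6, 0.948 and 21.3 in the 4 hCG day 12 arrays, listed by replicate number. Every day 10 array lay above every day 12 array, and the untreated arrays (16.7 to 97.04) overlapped those of day 12. The change was -3.35 ± 0.52 on the log2 scale (10.2-fold lower, adjusted p = 0.0032), a second of its 3 probe sets changed by -2.94 and the third by 0.15. Against untreated the same gene differed by 2.55 ± 0.52 on hCG day 10 (adjusted p = 0.022) and by -0.81 ± 0.52 on hCG day 12 (adjusted p = 0.61).

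TMPRSS7, a membrane serine protease, gave 326, 232, 507 and 571 on hCG day 10 and 57.9, 80.1, 2.48 and 23.8 on hCG day 12. The groups did not overlap, and both of its probe sets fell, with changes of -3.07 ± 0.45 (adjusted p = 0.0021) and -2.62 ± 0.41. ELF5, an ETS transcription factor best known from mammary alveoli and trophoblast, gave 702, 125, 479 and 859 on hCG day 10. On hCG day 12 it gave 28.2, 119, 11.3 and 62.5. Replicate 2 of hCG day 10 was low and came within a few units of replicate 2 of hCG day 12, so the groups only just separated. ELF5 fell by 2.94 ± 0.51 (adjusted p = 0.0093), and its other, dimmer probe set changed by -1.91 ± 0.33, in both cases to means near the untreated ones (51.4 ± 30.7 untreated and 55.2 ± 47.4 on hCG day 12 for the brighter).

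MFSD2A, a transporter of lysophosphatidylcholine that carries long-chain fatty acids, gave 201, 272, 309 and 429 on hCG day 10 and 32.2, 59.7, 38.3 and 35.2 on hCG day 12. No array of one group came near the other, and the change of -2.45 ± 0.28 (adjusted p = 0.00022) left a mean of 41.3 ± 12.5, beside 46.6 ± 18.1 in untreated tissue. TDRD9, a helicase of the germline piRNA pathway, gave 376, 411, 359 and 582 on hCG day 10 and 42.6, 140.2, 71.4 and 53.9 on hCG day 12. It fell by 2.35 ± 0.23 (adjusted p = 5.6e-05) and its group mean was lower still on hCG day 15 (37.7 ± 3.43) and hCG day 18 (23.01 ± 4.14), with untreated arrays at 139 ± 30.9. KCNG3, a modulatory subunit of voltage-gated potassium channels, gave 134, 134, 137 and 223 on hCG day 10 and 19.96, 28.1, 19.1 and 24.1 on hCG day 12. One day 10 array, replicate 4, was well above its group, and all 4 were above every day 12 array (change -2.13 ± 0.19, adjusted p = 2.1e-05); its other probe set gave -0.13.

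DNAJA4, a co-chaperone of HSP70, was called by all 3 of its probe sets. On the brightest one the arrays gave 1006, 1494, 1461 and 1072 on hCG day 10 and 325, 327, 351 and 301 on hCG day 12, a change of -1.88 ± 0.16 (adjusted p = 1.3e-05). The day 12 arrays were tightly grouped near the untreated mean of 299 ± 53.1, and the other 2 probe sets changed by -2.15 and -1.44. PRKX, a protein kinase of the cyclic AMP-dependent group, gave 1049.7, 802, 834 and 1228 on hCG day 10 and 133, 399, 178 and 219 on hCG day 12. It fell by 2.09 ± 0.23 (adjusted p = 0.00017); 2 of its 7 probe sets were called and the others reached up to 0.12. SHC4, an adaptor of receptor tyrosine kinases, gave 281, 382, 104 and 145 on hCG day 10, where replicates 1 and 2 were high, and 39.3, 48.5, 37.3 and 62.8 on hCG day 12, and fell by 1.81 ± 0.28 (adjusted p = 0.0032) with its second probe set at -1.80.

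ENPP3, an ectoenzyme that cleaves extracellular nucleotides, gave 388, 205, 159 and 188 on hCG day 10 and 40.4, 52.2, 18.7 and 70.04 on hCG day 12. It fell by 2.03 ± 0.41 (adjusted p = 0.027), a call that ended without hCG day 10 replicate 1, 2 or 4 or hCG day 12 replicate 1 or 3 (highest adjusted p = 0.098), while its second probe set fell by 1.93 ± 0.32. NANOS1, an RNA-binding repressor of translation, was the exception among these genes: untreated corpora lutea expressed it at 1293 ± 256. Its arrays gave 1205, 1589, 2071 and 1627 on hCG day 10 and 217, 764, 354 and 348 on hCG day 12, so the day 12 arrays lay below both groups of luteal day 10. The step measured -2.03 ± 0.37 (adjusted p = 0.012) and its call ended without hCG day 10 replicate 3 or hCG day 12 replicate 1 (highest adjusted p = 0.052); against untreated, hCG day 12 differed by -1.70 ± 0.37 (adjusted p = 0.057), which did not pass. Of the 11 decreases described so far, the calls of ANKRD22, TMPRSS7 and ENPP3 ended with a pseudocount of 1 in place of 16, taking for each gene its probe set with the largest change. In the fit of the 8 arrays alone, on the same probe sets, the calls of MFSD2A, TDRD9 and KCNG3 held and those of the other 8 ended. The brightest DNAJA4 probe set and the second of ANKRD22 kept their calls.

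**Figure D3:**
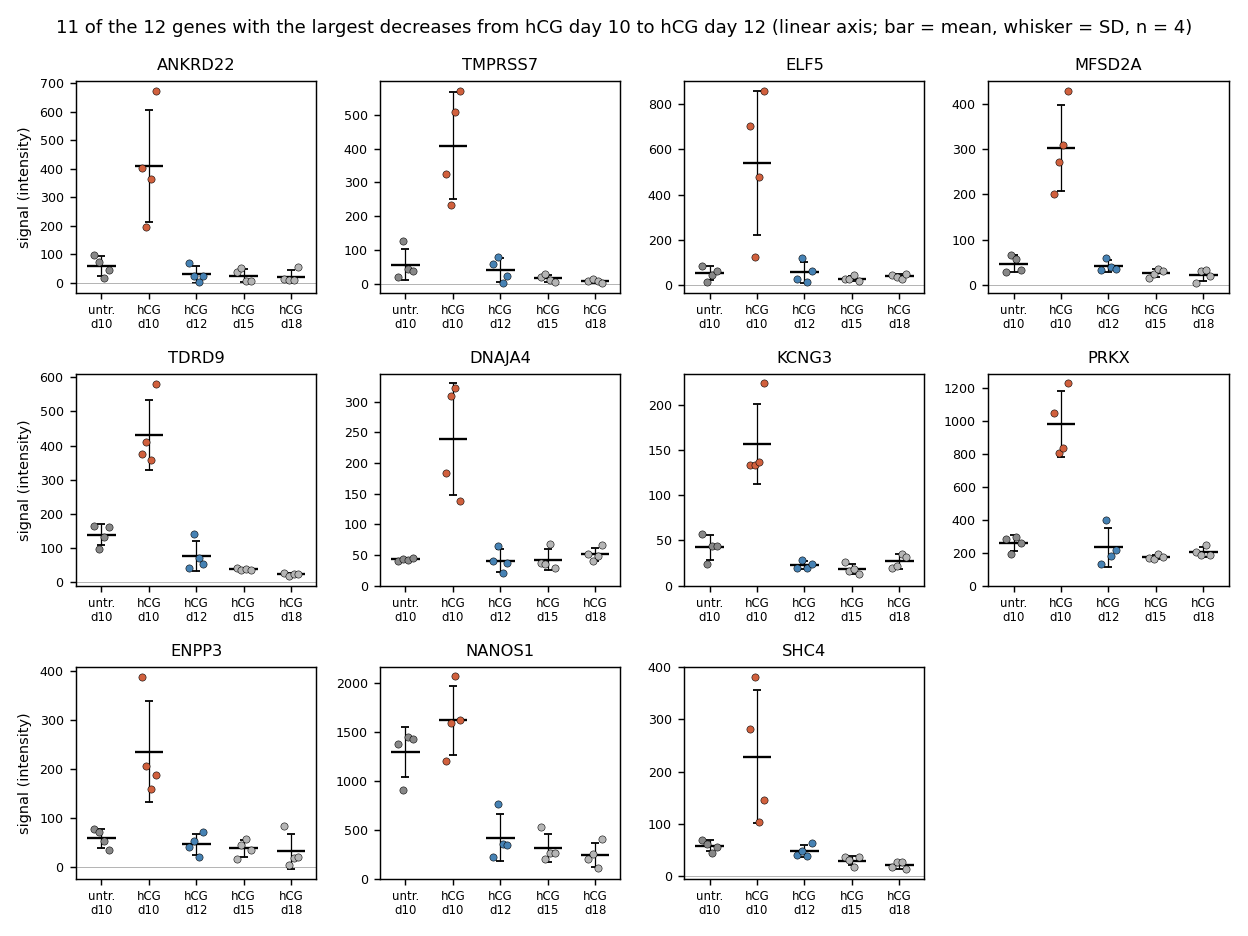
Signals (linear intensity) of 11 of the 12 genes with the largest decreases, 1 point per array in 5 groups of 4, with the mean (bar) and SD (whisker); a gene with only a LOC number for a name is left out. In the other 10 panels the hCG day 10 arrays stand above untreated and later arrays, while NANOS1 is also high in untreated tissue, at 1293 ± 256.

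The remaining decreases covered adhesion, lipid and sugar enzymes, and signalling. These genes were grouped by function after their values were seen, so the groups carry no test of their own. At cell contacts, CLMP, an adhesion molecule of tight junctions, gave 4567, 2543, 3119 and 4533 on hCG day 10 and 1002, 1376, 1555 and 924 on hCG day 12. The arrays separated widely, both probe sets fell (log2 changes -1.58 ± 0.29 and -1.76 ± 0.29), and the day 12 mean of 1214 ± 301 was near the untreated 1007 ± 169. The call of the first of these ended without hCG day 10 replicate 1 or 4 or hCG day 12 replicate 4 (highest adjusted p = 0.057). CLDN3, a claudin that seals tight junctions, gave 972, 2020.3, 2392 and 1689 on hCG day 10 and 474, 585, 377 and 707 on hCG day 12. Both of its probe sets fell (log2 changes -1.66 ± 0.28 and -1.74 ± 0.32), to a mean on the first under the untreated 896 ± 289. The call of the second ended without hCG day 10 replicate 3 (highest adjusted p = 0.055). CXADR, an adhesion receptor related to CLMP, fell by 1.38 ± 0.27 (adjusted p = 0.025), from 572 ± 264 to 193 ± 37.6. The CXADR call ended without hCG day 10 replicate 1 or 4 or hCG day 12 replicate 3 or 4 (highest adjusted p = 0.091). CPM, a carboxypeptidase anchored in the cell membrane, fell on both probe sets, with arrays of 1971, 2029, 1719.6 and 1449.8 on hCG day 10 and 927, 783, 333 and 434 on hCG day 12 on one of them (change -1.61 ± 0.26, adjusted p = 0.0052).

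Among enzymes of fatty acid metabolism, ACOT6, an acyl-CoA thioesterase, gave 659, 499, 698 and 779 on hCG day 10 and 235, 244, 264 and 193 on hCG day 12. The arrays of each group lay close together and far from the other, and the 2 called probe sets changed by -1.42 ± 0.16 (adjusted p = 0.00017) and -1.58 ± 0.23, while the third gave 0.46. CRAT, carnitine acetyltransferase, fell from 685 ± 74.5 to 359 ± 96.5 (-0.94 ± 0.17, adjusted p = 0.012). The CRAT call ended without hCG day 12 replicate 4 (highest adjusted p = 0.053), and its second probe set gave -0.11. OLAH, a thioesterase that releases medium-chain fatty acids, was dim, at 67.2 ± 47.4 on hCG day 10 and 11.1 ± 6.79 on hCG day 12 (-1.49 ± 0.27, adjusted p = 0.014), and its call ended without hCG day 12 replicate 4 (highest adjusted p = 0.061). HPGD, the dehydrogenase that inactivates prostaglandins, gave 1328, 790.3, 2899 and 1342 on hCG day 10 and 366, 536, 321 and 432 on hCG day 12. Its day 10 arrays were widely spread, with replicate 3 highest, and 2 of 5 probe sets were called (-1.77 ± 0.36 and -1.77 ± 0.37), the others ranging up to -1.17. The HPGD call of -1.77 ± 0.37 ended without hCG day 10 replicate 1, 3 or 4 or hCG day 12 replicate 1, 2, 3 or 4 (highest adjusted p = 0.1), and the other without hCG day 10 replicate 1, 3 or 4 or hCG day 12 replicate 1, 3 or 4 (highest adjusted p = 0.099).

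For sugar chains on proteins, ST3GAL4, a sialyltransferase, gave 932, 1270.0, 1365 and 1411 on hCG day 10 and 520.5, 431, 356 and 498 on hCG day 12. The groups were far apart, the change was -1.43 ± 0.22 (adjusted p = 0.0031), and the untreated mean was 502 ± 108. SLC35C1, the Golgi transporter of GDP-fucose, fell on both probe sets, with changes of -1.17 ± 0.18 (adjusted p = 0.003) and -0.98 ± 0.18, with a mean of 338 ± 129.8 on hCG day 10, 135 ± 19.6 on hCG day 12 and 110.1 ± 1.51 untreated. CMAS, which activates sialic acid, measured -0.97 ± 0.21 (adjusted p = 0.047), but 1 of its 5 probe sets was called, the others ran from -0.68 to 0.58, and the call ended without hCG day 10 replicate 1, 2 or 3 or hCG day 12 replicate 1, 2, 3 or 4 (highest adjusted p = 0.17).

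Among signalling genes, GADD45B, a stress-induced activator of MAP kinase cascades, gave 419.7, 427, 471 and 531 on hCG day 10 and 151, 219, 137 and 149 on hCG day 12. Each group was tight and the change was -1.42 ± 0.19 (adjusted p = 0.0012), with a second of 3 probe sets at -1.16 and an untreated mean of 139 ± 55.4. MAP3K13, a kinase upstream of JNK, was called lower on 2 of 3 probe sets, with changes of -1.33 ± 0.19 (adjusted p = 0.0016) and -1.21. CDK16, a cyclin-dependent kinase, was called lower on 3 of 4 probe sets. The one with the largest change went from 1595 ± 173 to 632 ± 87.6 (-1.32 ± 0.19, adjusted p = 0.0021), with 550.0 ± 38.1 untreated. The CDK16 probe set that was not called gave -0.84 ± 0.19 (adjusted p = 0.054). STIM1, the calcium sensor of the endoplasmic reticulum, fell from 477 ± 99.02 to 247 ± 69.6 (-0.92 ± 0.19, adjusted p = 0.034), and its call ended without hCG day 10 replicate 3 or 4 or hCG day 12 replicate 2, 3 or 4 (highest adjusted p = 0.13). AKAP1, which anchors protein kinase A at mitochondria, was called lower on 2 of 3 probe sets, at -0.95 ± 0.18 (adjusted p = 0.02) and -0.75. The call of the first ended without hCG day 10 replicate 3 or 4 or hCG day 12 replicate 1, 2 or 4 (highest adjusted p = 0.079).

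UNC119, a carrier of lipid-modified proteins, had the smallest adjusted p of the comparison. Its arrays gave 2582, 2793, 2989 and 2656 on hCG day 10 and 1025, 983, 1017 and 857 on hCG day 12. No array strayed from its group, and the change was -1.49 ± 0.12 (adjusted p = 7.9e-06), with 1258 ± 118 in untreated tissue. STXBP6, a regulator of vesicle fusion, gave 490.4, 502, 472 and 526 on hCG day 10 and 118, 233, 161 and 135 on hCG day 12, a change of -1.57 ± 0.17 (adjusted p = 0.00017) on 1 probe set and of -1.15 on a second of 3. SAMD14, a sterile alpha motif protein, went from 53.9 ± 17.1 to 5.23 ± 1.13 (-1.69 ± 0.18, adjusted p = 0.00011) and was called on all 3 of its probe sets; its day 12 signals were among the 29 called decreases with a day 12 mean under 16, where the size of the change rests on the pseudocount.

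On hCG day 12, 173 of the 219 lower probe sets had a mean below that of untreated tissue, and 9 were called lower than untreated. F2RL1, the protease-activated receptor PAR2, gave 1191, 829.9, 1058 and 763 on hCG day 10 and 314, 654, 272 and 269 on hCG day 12. Untreated arrays were the highest of the 3 groups at 1421 ± 359, so F2RL1 was already at a lower mean on hCG day 10 and changed by a further -1.39 ± 0.24 (adjusted p = 0.0083). On hCG day 12 it differed from untreated by -1.93 ± 0.24 (adjusted p = 0.0011). SLAIN1, a microtubule-associated protein, gave 915, 702, 1214 and 977 on hCG day 10 and 438, 564, 546 and 519 on hCG day 12, with untreated arrays at 990.3 ± 93.7. It fell by 0.84 ± 0.17 (adjusted p = 0.023) in the step and differed by -0.92 ± 0.17 from untreated on hCG day 12 (adjusted p = 0.017). The step's call ended without hCG day 10 replicate 1, 3 or 4 or hCG day 12 replicate 1 or 4 (highest adjusted p = 0.09). APPL2, an endosomal adaptor, fell on both probe sets, with arrays of 3994, 4958, 4623 and 4609.8 on hCG day 10 and 1700.4, 2297, 1912 and 1531 on hCG day 12 on the first (-1.29 ± 0.16, adjusted p = 0.00049). Its day 12 mean of 1860.2 ± 330.4 was lower than the untreated 3115 ± 454, a difference of -0.74 ± 0.16 that did not pass (adjusted p = 0.057). F2RL1, SLAIN1 and APPL2 were chosen after their values were seen.

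The calls included ARNTL (BMAL1), a transcription factor at the core of the circadian clock. The clock genes given here were brought together after their values were seen. Of them, PER1 is also in the list of cyclic AMP response and immediate early genes, and NR1D1 in that of nuclear receptors. The ARNTL arrays gave 438, 357, 395 and 593 on hCG day 10 and 205, 176, 138 and 139 on hCG day 12. The groups did not overlap and both probe sets fell, with changes of -1.35 ± 0.20 (adjusted p = 0.0028) and -1.27 ± 0.20. RORB, a retinoid-related orphan receptor, fell from 62.3 ± 13.5 to 16.6 ± 6.11 (-1.27 ± 0.21, adjusted p = 0.0058). NR1D1, a nuclear receptor that represses ARNTL, measured -0.95 ± 0.38 (adjusted p = 0.46) on one probe set and -0.40 on the other. The period genes did not pass either, with PER1 at -0.52 ± 0.28 (adjusted p = 0.67), PER2 at -0.14 and -0.19, and PER3 at -0.53 and 0.06. The labels used here give no clock time of collection, and its part in these values was not tested.

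Of the decreases described from CLMP to RORB, taking the probe set with the largest change, the calls of ACOT6, ST3GAL4, GADD45B, CDK16, UNC119, STXBP6, SAMD14, APPL2 and ARNTL held when only the 8 arrays were fitted. The others ended. With a pseudocount of 1 those of CXADR, OLAH, HPGD, CMAS, STIM1, AKAP1 and SLAIN1 ended. The calls of the second probe sets given for SLC35C1, MAP3K13, AKAP1 and STXBP6 each ended without at least 1 of the 8 arrays left out in turn.

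MXRA5, a secreted protein of matrix remodelling, had the largest called rise among genes with a symbol. Its arrays gave 643, 734, 799 and 768 on hCG day 10 and 2861, 1424, 2679 and 2118 on hCG day 12. The 4 day 10 arrays were tightly grouped under every other array, and the change of 1.56 ± 0.27 (2.95-fold, adjusted p = 0.0079) brought the mean to 2271 ± 647, beside 2327 ± 862 in untreated tissue. Against untreated, MXRA5 differed by -1.58 ± 0.27 on hCG day 10 (adjusted p = 0.005) and by -0.02 ± 0.27 on hCG day 12 (adjusted p = 0.99). TESK1, a kinase of the actin regulator cofilin, had the same order of means, with arrays of 776, 689, 448 and 374 on hCG day 10, 1009, 1627, 1309.8 and 899.9 on hCG day 12 and a mean of 1231 ± 219.8 untreated. It rose by 1.09 ± 0.22 (adjusted p = 0.027), a call that ended without hCG day 10 replicate 3 or 4 or hCG day 12 replicate 2 or 3 (highest adjusted p = 0.1), and its second probe set gave 0.12.

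CYBRD1, a ferric reductase of iron uptake, rose without a dip on hCG day 10. It gave 1098, 1352, 1052 and 1267 on hCG day 10 and 3275, 2351, 2362 and 3605 on hCG day 12. Untreated arrays averaged 1289 ± 327, level with hCG day 10, and the step of 1.25 ± 0.19 (adjusted p = 0.0028) was followed by higher means on hCG day 15 (4614 ± 694) and hCG day 18 (6131 ± 1056). ZDHHC19, a palmitoyltransferase, gave 255, 219, 235 and 316 on hCG day 10 and 687, 452, 699.8 and 589 on hCG day 12, with untreated arrays at 273 ± 27.2. It rose by 1.19 ± 0.17 (adjusted p = 0.0021), and its means were 809 ± 88.1 on hCG day 15 and 925 ± 248 on hCG day 18. KIAA1217, a cytoskeletal protein, gave 186, 288, 264 and 223 on hCG day 10 and 573, 649, 706 and 646 on hCG day 12, a rise of 1.38 ± 0.23 (adjusted p = 0.0055) that a second of 6 probe sets shared at 1.24, where the call ended without hCG day 10 replicate 1, 2 or 4 or hCG day 12 replicate 1, 3 or 4 (highest adjusted p = 0.12).

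ENPP2, the enzyme autotaxin that makes lysophosphatidic acid, gave 1293, 1988, 1489 and 2358 on hCG day 10 and 3459, 3659.7, 3817 and 5178 on hCG day 12. The untreated mean lay between at 3275 ± 862, with arrays that overlapped both groups, and the rise was 1.19 ± 0.26 (adjusted p = 0.042). The ENPP2 call ended without hCG day 10 replicate 1, 2 or 3 or hCG day 12 replicate 1, 2, 3 or 4 (highest adjusted p = 0.16). ACTR3, a subunit of the Arp2/3 complex that nucleates actin, gave 281, 321, 206 and 193 on hCG day 10 and 519, 675, 455 and 564 on hCG day 12. It rose by 1.11 ± 0.18 (adjusted p = 0.0041), and a second of 5 probe sets by 0.89, a call that ended without hCG day 10 replicate 3 or 4 or hCG day 12 replicate 1, 2, 3 or 4 (highest adjusted p = 0.11). The remaining ACTR3 probe sets were not called and reached down to -0.05. PTPN22, a phosphatase of lymphocyte signalling, gave 140.0, 128, 169 and 108 on hCG day 10 and 353, 271, 403 and 305 on hCG day 12, with untreated arrays at 109 ± 22.3. Its rise was 1.20 ± 0.23 (adjusted p = 0.019), and 1 of its 4 probe sets was called. The PTPN22 call ended without hCG day 10 replicate 1, 2 or 4 or hCG day 12 replicate 1 or 3 (highest adjusted p = 0.075). The lymphocyte list had 0 of 13 members called (median -0.10), a count at the background of 0.722% called over 14132 genes.

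ISG20, an exonuclease induced by interferon, went from 76.9 ± 18.9 to 172 ± 44.1, with 141 ± 34.2 untreated (1.01 ± 0.21, adjusted p = 0.029). The ISG20 call ended without hCG day 10 replicate 1 or 2 or hCG day 12 replicate 1, 3 or 4 (highest adjusted p = 0.12). The interferon list had 0 of 16 members called, with a median of 0.26 and 12 of 16 above 0. NDUFA6, a subunit of respiratory complex I, went from 549.9 ± 116 to 1204 ± 254 (1.11 ± 0.24, adjusted p = 0.044). The NDUFA6 call ended without hCG day 10 replicate 1, 2, 3 or 4 or hCG day 12 replicate 1, 3 or 4 (highest adjusted p = 0.14), and 1 of its 5 probe sets was called. The respiratory chain list had 0 of 16 genes called (median 0.02). With 0.722% called over 14132 genes, the interferon and respiratory chain counts are at the background. LRIG1, which restrains EGF receptor signalling, went from 293 ± 62.6 to 648 ± 275 (1.04 ± 0.23, adjusted p = 0.048), with replicate 1 of hCG day 12 highest at 1030.1. The LRIG1 call ended without hCG day 10 replicate 1, 2, 3 or 4 or hCG day 12 replicate 1 or 3 (highest adjusted p = 0.16), and its other 2 probe sets gave 0.06 and 0.30. A gene known only as LOC717047 went from 1807 ± 765 to 4945 ± 559 (1.54 ± 0.34, adjusted p = 0.047). That call ended without hCG day 10 replicate 1, 2 or 4 or hCG day 12 replicate 1, 2, 3 or 4 (highest adjusted p = 0.16). In the fit of the 8 arrays alone, MXRA5 and KIAA1217 held of the 12 increases, and with a pseudocount of 1 those of LOC717047, PTPN22, ENPP2, NDUFA6, TESK1, LRIG1 and ISG20 ended.

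**Figure D4:**
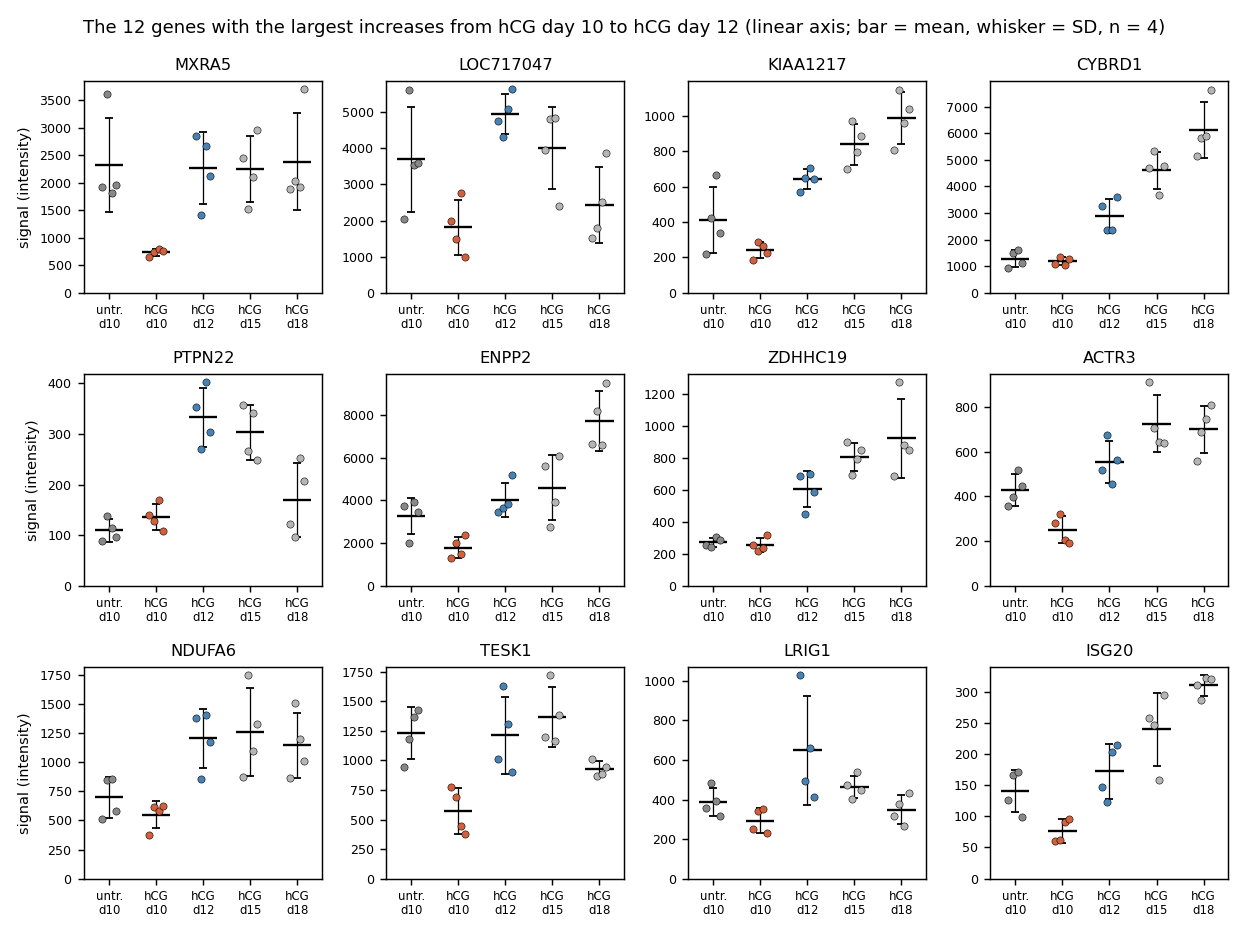
Signals (linear intensity) of the 12 genes with the largest increases, 1 point per array in 5 groups of 4, with the mean (bar) and SD (whisker). MXRA5 and TESK1 are lowest in the hCG day 10 arrays, at means of 736 and 572, while CYBRD1 and ZDHHC19 start level with untreated and keep higher means on hCG days 15 and 18.

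Probe sets without a symbol held the largest called rises. MmunewRS.930.1.S1_at rose by 3.90 ± 0.82 (adjusted p = 0.035), from 4.17, 17.6, 7.21 and 10.99 to 36.6, 374, 1074 and 924, with untreated arrays from 7.31 to 79.8. That call ended without hCG day 10 replicate 1, 2, 3 or 4 or hCG day 12 replicate 2, 3 or 4 (highest adjusted p = 0.14). Among decreases without a symbol was that of MmugDNA.7164.1.S1_at (-2.88 ± 0.45).

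Of the 499 list genes measured, 5 were among the calls, a share near the 0.722% called over 14132 genes. Of 32 gene lists for luteal function, hormones, vessels, immune cells and housekeeping, 28 had no member called on its brightest probe set. HPGD, in the list of prostaglandin and oxytocic receptors, did not pass on its brightest (-1.17 ± 0.31, adjusted p = 0.13). Its 2 calls given above are on dimmer probe sets and are not counted here. The 5 called were ELF5 and SOX9 in the list of ovarian transcription factors (2 of 20), IGF1 in the IGF system (1 of 14), MXRA5 in stroma and matrix (1 of 16) and ADAMTS5 among proteases of the matrix (1 of 19). IGF1, a growth factor that acts with gonadotropins in the ovary, gave 2155, 2211, 1648 and 1824 on hCG day 10 and 683, 835, 778 and 603 on hCG day 12. The day 12 arrays lay around the untreated mean of 699 ± 188, and the change was -1.42 ± 0.21 (adjusted p = 0.0021). Of its 4 probe sets the brightest, the one counted in the list, gave -1.41 ± 0.22 (adjusted p = 0.0031). The remaining ones gave -1.49 and -0.78. SOX9, a transcription factor of gonadal development, was dim, with 31.7, 28.4, 22.2 and 47.9 on hCG day 10 and 5.04, 4.49, 18.8 and 3.93 on hCG day 12. Its change of -1.03 ± 0.18 (adjusted p = 0.011) passed. The call ended with a pseudocount of 1, with only the 8 arrays, and without the 3 arrays that stood apart on a principal component (adjusted p up to 0.2). It also ended without hCG day 12 replicate 4 (highest adjusted p = 0.053). ADAMTS5, a protease of proteoglycans, went from 960.2 ± 113 to 1908 ± 461 (0.95 ± 0.19, adjusted p = 0.028). Its call ended without hCG day 10 replicate 1, 3 or 4 or hCG day 12 replicate 1, 3 or 4 (highest adjusted p = 0.12).

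**Figure D5:**
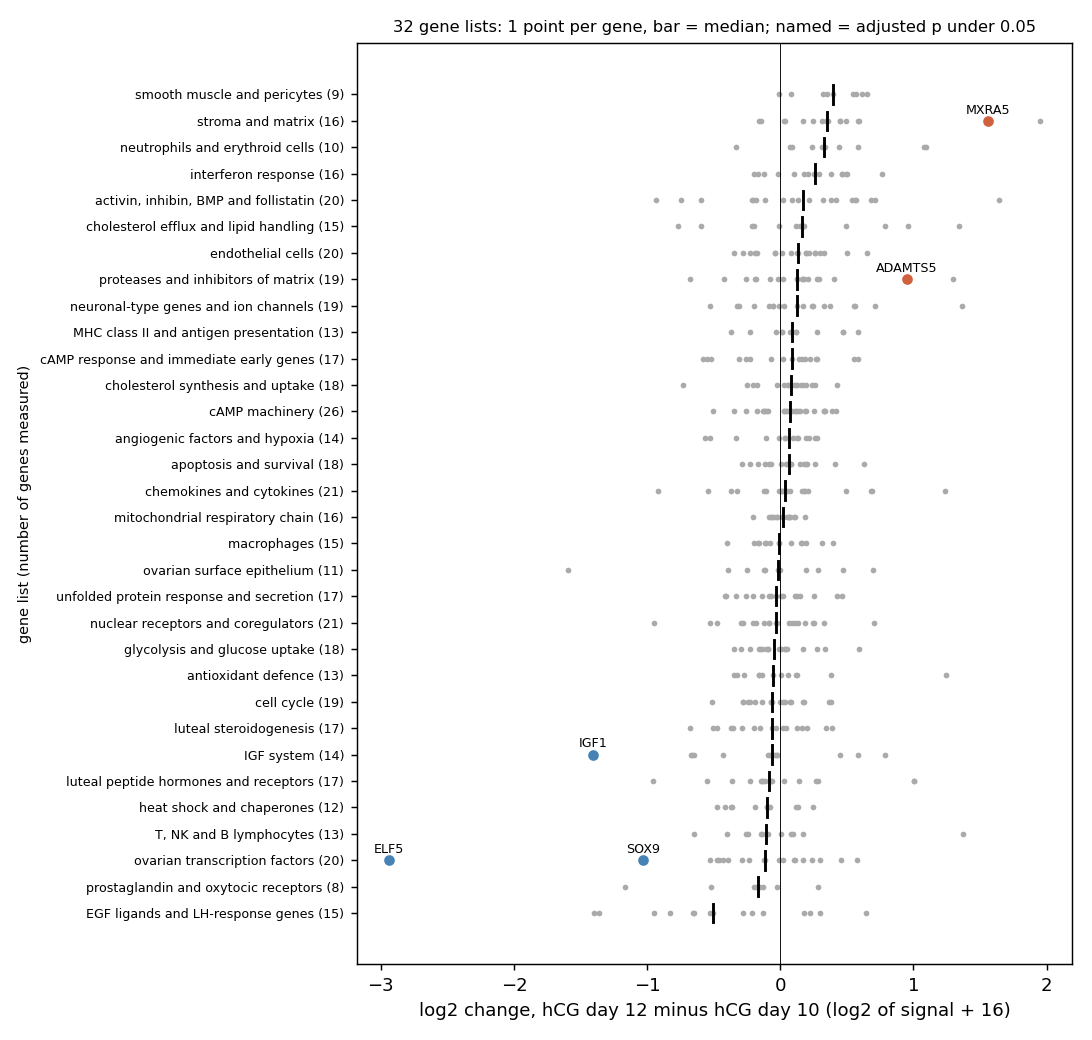
Each point is 1 gene of the named list, placed by its log2 change from hCG day 10 to hCG day 12, with the list's median as a bar and the 5 called genes in colour with their names. List medians run from -0.51 for EGF ligands and LH-response genes to 0.39 for smooth muscle and pericytes, and the median over all genes is -0.00.

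Of 17 measured steroidogenic genes 0 passed (median -0.06), and of 18 genes of cholesterol synthesis and uptake 0 passed (median 0.08). With 0.722% called over all genes, lists of this size would mostly hold no call, so these counts are at the background. STAR gave 15979.7, 13652, 16464 and 15802 on hCG day 10 and 23031, 13754, 11282 and 16735 on hCG day 12, with the day 12 arrays more widely spread around the same level (0.02 ± 0.17, adjusted p = 1.0). The sign of that value turned without hCG day 10 replicate 2 and without hCG day 12 replicate 1 or 4. CYP19A1 measured -0.03 ± 0.26 (adjusted p = 1.0), and its sign turned in 4 of the alternatives. HSD3B2, the enzyme that forms progesterone from pregnenolone, gave 11335, 8062, 10724 and 11173 on hCG day 10 and 6468, 8344, 4934 and 6283 on hCG day 12. Its arrays overlapped and the change of -0.68 ± 0.21 did not pass (adjusted p = 0.24), while its group means continued to 4347 ± 1321 on hCG day 15 and 2339.9 ± 447 on hCG day 18. HSD17B7, of both cholesterol and estradiol synthesis, measured -0.73 ± 0.28 (adjusted p = 0.44), and EBP, a sterol isomerase, 0.43 ± 0.28 (adjusted p = 0.78).

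Genes of the gonadotropin response and of the EGF family had the lowest median of the 32 lists, -0.51, with 11 of 15 members below 0 and 0 called. PTX3, a matrix protein of the ovulatory cumulus, gave 670.3, 221, 282 and 383 on hCG day 10 and 88.6, 122, 135 and 168 on hCG day 12. Its groups did not overlap and the change was -1.40 ± 0.32, just short of the threshold (adjusted p = 0.054). AREG, an EGF receptor ligand, gave 8659, 6064, 7309 and 6598 on hCG day 10 and 1579.8, 4582, 2654 and 3011 on hCG day 12, again without overlap, at -1.36 ± 0.45 (adjusted p = 0.29). TNFAIP6, a hyaluronan-binding protein, measured -0.66 ± 0.25 (adjusted p = 0.43). In the list of cyclic AMP response and immediate early genes 0 of 17 passed (median 0.09, with 10 above 0 and 7 below). Its 2 members with the smallest p went opposite ways, NR4A1 at 0.58 ± 0.26 (adjusted p = 0.54) and PER1 at -0.52 ± 0.28 (adjusted p = 0.67). In the list of the cyclic AMP machinery 0 of 26 passed (median 0.07).

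Among hormones, INHBA, the subunit of activin A, gave 1032, 1813, 1694 and 1962 on hCG day 10 and 2745, 5487, 5274 and 7719 on hCG day 12. All day 12 arrays were higher, and the change of 1.65 ± 0.38 did not pass (adjusted p = 0.061), nor did that of SMAD6, an inhibitor of BMP signalling (0.68 ± 0.15, adjusted p = 0.054). INHA measured 0.09 ± 0.17 (adjusted p = 0.97), a value that went to -0.00 without hCG day 12 replicate 1. RLN2, the luteal hormone relaxin, gave 2469.8, 9766, 8187 and 8380.2 on hCG day 10 and 18443, 10803, 10200.1 and 13163 on hCG day 12, with replicate 1 lowest of its group on day 10 (1.00 ± 0.42, adjusted p = 0.5). PGR, the progesterone receptor, was dim in both groups at 81.7 ± 22.1 and 65.7 ± 24.6 (-0.28 ± 0.19, adjusted p = 0.8), and ESR2 measured -0.53 ± 0.29 (adjusted p = 0.69).

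Marker lists of other cell types had no call apart from MXRA5. Stroma and matrix genes had a median of 0.35, with 14 of 16 above 0, and their summed signal ran from 25764 to 28406 on hCG day 10 and from 31159 to 48665 on hCG day 12. Smooth muscle and pericyte genes had a median of 0.39, with 8 of 9 above 0 and 0 called, and summed to 4479 to 5655 and 5457 to 7656. The mean log2 value of the stroma list had a pooled SD of 0.25 between arrays of a group, that of the smooth muscle list 0.14. Replicate 1 of hCG day 12, among the 3 arrays apart on a principal component, was highest of its group for LUM (558), CNN1 (131) and ACTG2 (751), but not for ADAMTS5 (1739). Its share in the list medians was not tested. The part of stromal cells in the rises of MXRA5 and ADAMTS5 was not tested, and in whole tissue a change in the number of cells and in RNA per cell cannot be told apart. Neutrophil and erythroid genes summed to 622 to 3060.2 on hCG day 10 and 1420.0 to 9145 on hCG day 12, with the hemoglobin gene HBA highest in replicate 1 of hCG day 12.

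Macrophage genes gave 0 calls among 15, with a median of -0.01 and sums of 6939 to 9505 on hCG day 10 and 6583 to 9902 on hCG day 12. One probe set named for C1QA, a complement subunit made by macrophages, fell by 1.70 ± 0.29 (adjusted p = 0.0082), but the brighter C1QA probe set gave -0.01, C1QB -0.01 and C1QC -0.11. The probe sets named C1QA thus disagree. Endothelial genes had 0 of 20 called (median 0.13), lymphocyte genes 0 of 13 (median -0.10) and ovarian surface epithelium 0 of 11 (median -0.02), where KRT8 measured -1.59 ± 0.53 (adjusted p = 0.3).

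The later collection days share no array with the step, and they were compared with untreated corpora lutea. Of the 219 probe sets that fell, 33 (15.1%) were called lower than untreated on hCG day 15 and 58 (26.5%) on hCG day 18, and 0 were called higher on either day. Over all probe sets 0.674% and 2.02% were called lower, and over the upper 50% by mean signal 1.08% and 3.43%. Of the 54 that rose, 20 (37.0%) were called higher than untreated on hCG day 15 and 20 on hCG day 18, where 1 was called lower, beside 0.619% and 1.87% over all probe sets and 1.15% and 3.34% over the upper 50%. Calls in different comparisons share 1 estimate of the spread, which favours the same low-spread probe sets in each. The median difference from untreated of the 219 was -0.32 on hCG day 15 and -0.40 on hCG day 18, and that of the 54 was 0.47 and 0.42. Among the genes named, TDRD9 went from 77.03 on hCG day 12 to 23.01 on hCG day 18, APPL2 from 1860.2 to 994, and CYBRD1 from 2898 to 6131, whereas PTPN22 peaked at 333 on hCG day 12 and averaged 169 on hCG day 18.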

How the data were processed

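RNA of 20 corpora lutea was hybridised as biotin-labelled cRNA to Affymetrix rhesus arrays, per the labels' protocols. The deposited signals are linear intensities, 1 per probe set and array, made by the authors with GCOS, per the submitters' processing notes; the version and scaling target are not given in the sources used here. Groups were taken from the labels. Control probe sets were left out, no further scaling or filter was applied, and log2(signal + 16) was fitted with 1 mean per group. The fit took in all 20 arrays and used R (version 4.3.3) and its package limma (version 3.58.1; lmFit, eBayes), with p values adjusted by Benjamini-Hochberg over 52707 probe sets and a threshold of 0.05. The 20-array fit shares 1 estimate of the spread per probe set over 5 groups. Symbols came from the platform annotation, and 24616 probe sets matched RefSeq by gene number. Arrays have no read depth.

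The members and lists were chosen with earlier results of these data known. Genes were named by rule: up to 12 higher and 12 lower ranked by size of change, from called probe sets that carry 1 symbol and whose arrays did not overlap (LOC numbers only within the first 3); up to 4 called members per list, or up to 2 as values; and 12 reference genes, of which 7 were measured. Other genes are said to be chosen after their values were seen. These were the junction, lipid, glycan, signalling and clock genes, UNC119, STXBP6, SAMD14, TNFAIP6, AREG, C1QA and the probe sets without a symbol. Among them HPGD, PER1 and NR1D1 were also named by the list rule. Each list gene is counted by its brightest probe set, while the signals printed for IGF1 and HPGD are from other probe sets.

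Same-numbered arrays of the 2 groups deviated from their group means with correlations of 0.0893, -0.0768, 0.363 and 0.00851, so the numbers were not taken to pair them. Alternatives were quantile normalisation, median-centring, pseudocounts of 1 and 64, the upper 50% of probe sets, the 8 arrays alone, a replicate block, 1 probe set per gene, leaving out each array and, chosen after seeing the data, leaving out the 3 arrays apart on principal component 3. On simulated data the procedure recovered 63 of 100 probe sets changed by a log2 of 1 and 92 of 100 changed by 2, with 8 unchanged ones called. The changed probe sets were drawn from the upper 50% by mean signal, and the noise was normal and independent between probe sets. These rates therefore do not cover dim probe sets or noise shared between probe sets. Figures used matplotlib (version 3.10.9).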

Additional observations from a re-analysis of the deposited data

Results flagged for a closer look

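In groups of 4 arrays, 1 array stood apart from the other 3 by Dixon's criterion, the gap to the nearest array over the group's whole range, in 6 of 68 groups checked, where chance gives about 1 in 20. On hCG day 10, KCNG3 was highest in replicate 4 at 223, with the others at 134 to 137 (gap over range 0.955). NDUFA6 was lowest in replicate 1 at 378, with the others at 582 to 626 (0.855). HSD3B2 was lowest in replicate 2 at 8062, with the others at 10724 to 11335 (0.837). RLN2 was lowest in replicate 1 at 2470, beside 8187 to 9766 (0.872). On hCG day 12, an IGF1 probe set was highest in replicate 2 at 1118, beside 933 to 957 (0.862), and SOX9 was highest in replicate 3 at 18.8, beside 3.93 to 5.04 (0.903). The call of this IGF1 probe set held without each of the 8 arrays, and so did that of KCNG3.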

How the results depend on the processing

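All 273 called probe sets kept their direction in the alternatives they were tested in (226 in the upper 50%), but which of them passed moved. In the 8 arrays alone and in the upper 50% the change is the same value as in the main fit. Leaving out 1 array cannot turn the direction of a probe set whose groups did not overlap. The kept direction therefore says little about stability. The count was 286 with quantile normalisation and 228 with median-centring, against 273. With a pseudocount of 1 it was 146 (129 lower, 17 higher, 3 list genes), with 64 the higher calls were 88, and with the upper 50% of probe sets 96. In the 8 arrays alone it was 56 (52 lower, 4 higher, 2 list genes), and with 1 probe set per gene, adjusted over genes, 153 (120 lower, 33 higher). Leaving out each array gave 151 to 286 (128 to 234 lower, 22 to 52 higher, 3 to 7 list genes). Without the 3 arrays apart on component 3, of which hCG day 12 replicate 1 belongs to this step, the higher calls were 31. With a replicate block 250 passed, 219 of them among the 273; same-numbered arrays did not all deviate together, so the pairing has no support beyond the number.

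Of 138 called genes, 25 held in all alternatives and 54 without each array in turn; 111 ended in the 8 arrays alone, 74 with a pseudocount of 1, 36 with median-centring, 36 with the block and 7 with quantile normalisation. Of genes that never passed, STAR turned to -0.04 without hCG day 10 replicate 2, to -0.17 without hCG day 12 replicate 1 and without the 3 arrays apart, and to -0.01 without hCG day 12 replicate 4. CYP19A1 turned to 0.03 with quantile normalisation and without hCG day 10 replicate 1 or 3, and to 0.11 without hCG day 12 replicate 3, and INHA went to -0.00 without hCG day 12 replicate 1 and without the 3 arrays apart. Over the fits that leave out 1 array, STAR ran from -0.17 to 0.18, CYP19A1 from -0.14 to 0.11 and INHA from -0.00 to 0.18. The cause of these changes was not tested. Without detection calls, the size of a change in dim probe sets rests on the pseudocount.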
